A study of Homo sapiens with 5 samples.

Results

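The MTRNR2L genes are nuclear copies of the mitochondrial gene MT-RNR2, which encodes the 16S ribosomal RNA. The genes described here were the 9 entries of the expression tables with the symbols MTRNR2L1, MTRNR2L2, MTRNR2L3, MTRNR2L4, MTRNR2L5, MTRNR2L6, MTRNR2L7, MTRNR2L8 and MTRNR2L10, out of 19716 genes with a read in any library. They were selected with their read levels in these libraries known, so their levels and their differences are given as a description: calls made by tests across all genes are counted below, but they are not evidence for these genes.

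RNA was sequenced from HEK293T cells, a cell line derived from human embryonic kidney, in 5 libraries with 1 library per group. In 4 groups the cells received 5 uPA guide RNAs together with a plasmid expressing catalytically inactive Cas9 (dCas9) fused to blue fluorescent protein (BFP) and, at its end, the catalytic domain of DNMT1 (dCas9-BFP-DNMT1) or of DNMT3A (dCas9-BFP-DNMT3A) or of DNMT3B (dCas9-BFP-DNMT3B), or EGFP as a fusion without a methyltransferase (dCas9-BFP-EGFP). In the paper, uPA promoter methylation rose with the DNMT3A and DNMT3B fusions but not with the DNMT1 or EGFP fusion. The paper describes the DNMT1 and EGFP fusions as without de novo methylation activity. The control received the plasmid pUC19, with neither guide RNA nor fusion. All groups received 1 ug of plasmid with X-tremeGENE 9, RNA was taken at 48 h, and the fusions were driven by the PGK promoter. The labels state sorting of BFP-positive cells for all 5 groups, but pUC19 carries no BFP, so a difference in sorting and the transfected plasmid cannot be told apart. There was no replicate of any group. Intervals below are 95% intervals of read counting, and the variation between cultures is not known.

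MT-RNR2 holds, inside the 16S rRNA, a short reading frame for humanin, a small peptide with cell-protective activity that was found in a screen for rescue from neuronal death. Fragments of mitochondrial DNA have entered the nuclear genome many times during evolution, and the MTRNR2L genes are long fragments of this kind in which a humanin-like frame can still be read. Humanin binds the pro-apoptotic protein BAX inside cells, and signals at the cell surface through formyl peptide receptors or a receptor made of CNTFR, IL27RA and IL6ST. Mitochondrial rRNAs carry short A tails, so some are drawn into poly(A) RNA. Because the nuclear copies keep much of the 16S sequence, a short read of the mitochondrial rRNA can be close to several of them.

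The humanin frame shows how near the copies are to the mitochondrial gene and to each other. The frame of 72 bases was read from GRCh37 for MT-RNR2 at chrM:2633-2704 on the plus strand, MTRNR2L8 at chr11:10529702-10529773 on the minus strand, MTRNR2L2 at chr5:79945841-79945905 on the minus strand, MTRNR2L1 at chr17:22023388-22023459 on the plus strand, MTRNR2L6 at chr7:142375063-142375134 on the plus strand, MTRNR2L3 at chr20:55934024-55934095 on the minus strand and MTRNR2L10 at chrX:55208356-55208427 on the minus strand. They are printed 5′ to 3′, and capitals mark the bases that differ from MT-RNR2.
MT-RNR2: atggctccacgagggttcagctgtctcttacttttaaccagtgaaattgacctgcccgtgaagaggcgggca
MTRNR2L8: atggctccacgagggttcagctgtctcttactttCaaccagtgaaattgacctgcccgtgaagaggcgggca
MTRNR2L2: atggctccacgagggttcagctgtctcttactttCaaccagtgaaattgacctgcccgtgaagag
MTRNR2L1: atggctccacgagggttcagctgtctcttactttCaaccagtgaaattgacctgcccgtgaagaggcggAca
MTRNR2L6: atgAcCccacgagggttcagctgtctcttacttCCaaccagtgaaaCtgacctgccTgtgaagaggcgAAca
MTRNR2L3: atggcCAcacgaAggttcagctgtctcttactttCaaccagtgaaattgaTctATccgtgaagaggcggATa
MTRNR2L10: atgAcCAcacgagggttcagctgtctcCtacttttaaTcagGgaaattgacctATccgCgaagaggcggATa

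MTRNR2L8 differed from MT-RNR2 at 1 of 72 bases of the frame and MTRNR2L1 at 2. For MTRNR2L2, 65 bases of the frame were matched and 1 differed. MTRNR2L6 differed at 8 bases, MTRNR2L3 and MTRNR2L5 at 9 each, MTRNR2L10 at 11 and MTRNR2L7 at 12. MTRNR2L4 differed at 11 bases and lacked 1. The frames of MTRNR2L8 and MTRNR2L2 differed at 0 of the 65 bases matched in both, and every one of the 9 copies opened with ATG.

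Over their whole length MTRNR2L2, MTRNR2L8, MTRNR2L1 and MTRNR2L6 were again nearest to MT-RNR2. MTRNR2L3 came last only when gaps were counted as differences, as in the identities given first. Over the blocks matched to the 1559 bases of MT-RNR2 (chrM:1671-3229), identity was 94.5% for MTRNR2L2, 93.0% for MTRNR2L8, 88.4% for MTRNR2L1 and 84.9% for MTRNR2L6. It was 80.4% for MTRNR2L10, 79.4% for MTRNR2L4, 79.2% for MTRNR2L7, 78.7% for MTRNR2L5 and 78.7% for MTRNR2L3. Without gaps MTRNR2L3 was at 82.4%, below MTRNR2L10 (83.1%) but above MTRNR2L4 (81.2%), MTRNR2L7 (81.0%) and MTRNR2L5 (80.6%). Among the 36 pairs of copies, identity was taken without gaps over the best local alignment, so it is not on the scale of the identities given first. It ranged from 81.6% (MTRNR2L1 and MTRNR2L5) to 96.5% (MTRNR2L2 and MTRNR2L8, over 1026 bases). The copies with the highest identity to MT-RNR2 thus also formed the most similar pair. The 9 genes were not the only such copies: 34 blocks of at least 500 bases of the nuclear genome matched MT-RNR2, 25 of them outside the 9 genes, and the highest identity of a nuclear block elsewhere was 95.04%.

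On GRCh37, MTRNR2L2 lay at chr5:79945841-79946866 on the minus strand. MTRNR2L8 lay at chr11:10529434-10530735 on the minus strand, between AMPD3 and RNF141. MTRNR2L1 lay at chr17:22022437-22023991 on the plus strand, and 103 of its bases overlapped exons of an antisense long noncoding RNA. MTRNR2L6 was at chr7:142374104-142375550 on the plus strand. MTRNR2L3 was at chr20:55933496-55934878 on the minus strand, in an intron of RAE1 on the opposite strand. MTRNR2L10 was at chrX:55207824-55208944 on the minus strand and MTRNR2L4 at chr16:3421032-3422332 on the minus strand. MTRNR2L5 at chr10:57358750-57360493 on the plus strand lay in an intron of PCDH15, on the opposite strand, and MTRNR2L7 at chr10:37890373-37891902 on the minus strand. GENCODE annotates MTRNR2L1, MTRNR2L3, MTRNR2L6 and MTRNR2L10 as an exon with a coding frame. The other 5 were placed by the match of MT-RNR2 and their neighbouring genes, and their ends are those of the match. RefSeq lists all 9 as pseudogenes.

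The libraries held 26.2 to 36.1 times 1000000 reads. The fused methyltransferases were seen in their libraries, at 14582 TPM for DNMT1 against at most 175.5 elsewhere, at 16745 TPM for DNMT3A against at most 21.3, and at 33141 TPM for DNMT3B against at most 45.1. TPM is a level per length: the reads of a gene over its length, brought to the same sum in every library. PLAU, which encodes uPA and whose promoter the guide RNAs target, was at 2.48 TPM in the control and at 0.03 to 0.18 TPM in the fusion libraries. VIM, KRT18, NEFM, PAX2 and LIN28B, chosen as genes expected in the HEK293 line, were read in all 5 libraries. PTPRC, ALB, COL3A1 and PECAM1 were each at or below 0.88 TPM and COL1A1 at 3.87 to 7.97 TPM. NEFM was at 193.0 TPM in the control and 34.3 to 60.2 TPM in the fusion libraries.

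The 9 genes held 279521 reads in the dCas9-BFP-DNMT1 library, 207754 in dCas9-BFP-DNMT3A, 168540 in dCas9-BFP-DNMT3B, 174630 in dCas9-BFP-EGFP and 139808 in the control. As shares of all reads these were 1.01% (95% exact binomial interval 1.00 to 1.01), 0.706% (0.703 to 0.709), 0.621% (0.618 to 0.624), 0.665% (0.662 to 0.668) and 0.387% (0.385 to 0.389). The dCas9-BFP-DNMT1 library was thus the highest and the control the lowest, with the remaining fusions between them. RPM, the reads of a gene for every 1000000 reads of its library, compares libraries. Relative to the control the summed RPM was 2.61 times as high with dCas9-BFP-DNMT1, 1.82 times with dCas9-BFP-DNMT3A, 1.72 times with dCas9-BFP-EGFP and 1.60 times with dCas9-BFP-DNMT3B. The dCas9-BFP-EGFP library, without a methyltransferase, lay between the DNMT3A and the DNMT3B libraries. In bulk RNA, more cells with such reads and more reads per cell cannot be told apart.

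The reads were spread very unevenly over the genes. MTRNR2L2 held 42.9% of the 970253 reads on the 9 genes, MTRNR2L8 37.8%, MTRNR2L1 12.4% and MTRNR2L6 3.37%, and these 4 together held 96.4%. MTRNR2L3 held 2.86% and MTRNR2L10 0.627%. The other 3 held 0.0734% (MTRNR2L4), 0.0137% (MTRNR2L5) and 0.000825% (MTRNR2L7). All genes but MTRNR2L7 had reads in every library.

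**Figure D1:**
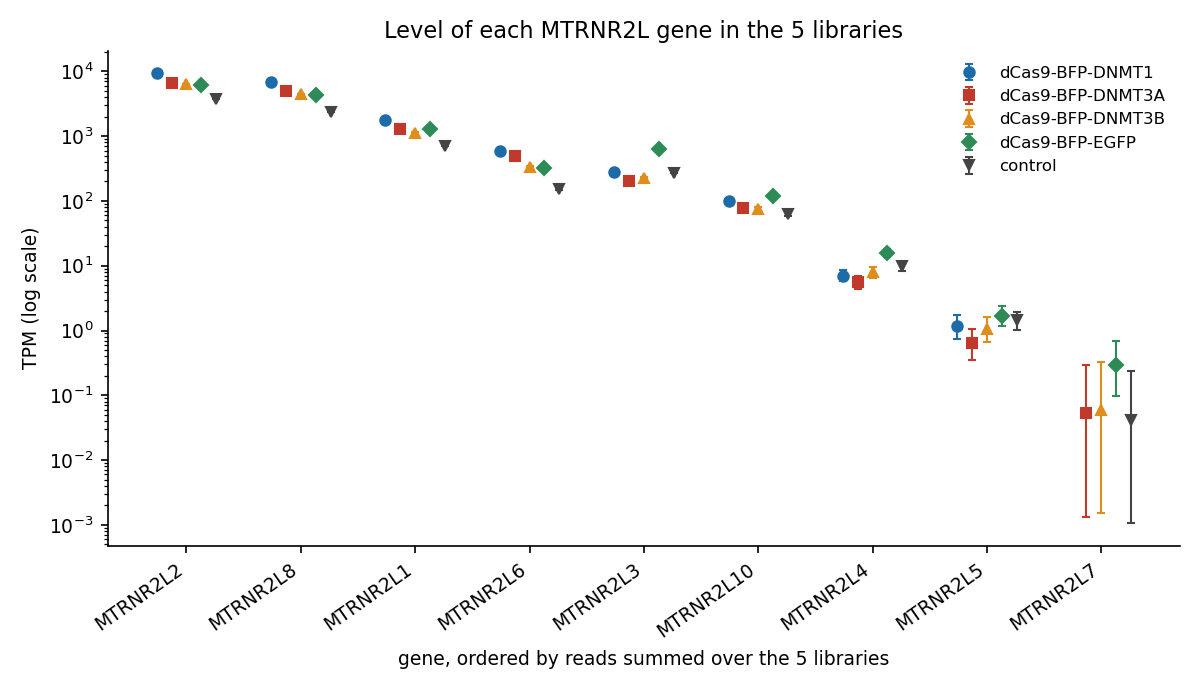
TPM of each gene (log axis) in the 5 libraries, with genes ordered by summed reads and bars for the 95% interval of read counting. MTRNR2L2 and MTRNR2L8 sit highest, MTRNR2L3 stands out in the dCas9-BFP-EGFP library at 629 TPM, and MTRNR2L7 has no point for dCas9-BFP-DNMT1, where it had 0 reads.

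MTRNR2L2, the copy with the highest identity to MT-RNR2 of the 9, was at 9305 TPM in the dCas9-BFP-DNMT1 library, 6620.5 in dCas9-BFP-DNMT3A, 6381 in dCas9-BFP-DNMT3B, 6252 in dCas9-BFP-EGFP and 3749.6 in the control. It ranked between 5 and 26 among all genes by TPM. MTRNR2L8 was at 6843 TPM with dCas9-BFP-DNMT1, 4945 with dCas9-BFP-DNMT3A, 4443 with dCas9-BFP-DNMT3B, 4247 with dCas9-BFP-EGFP and 2399 in the control, with ranks from 9 to 48. Both genes had their highest level in the DNMT1 fusion library and their lowest in the control, and the remaining fusions differed among themselves by less than either gap. In RPM, MTRNR2L8 in the DNMT3B and EGFP fusion libraries did not differ beyond counting (ratio 1.01, interval 0.997 to 1.02).

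MTRNR2L1 was at 1782 TPM with dCas9-BFP-DNMT1, 1283 with dCas9-BFP-DNMT3A, 1128 with dCas9-BFP-DNMT3B, 1309 with dCas9-BFP-EGFP and 716 in the control. Its RPM in the EGFP and DNMT3A fusion libraries did not differ beyond counting (ratio 1.01, interval 0.996 to 1.03). MTRNR2L6 was at 589 TPM with dCas9-BFP-DNMT1, 501 with dCas9-BFP-DNMT3A, 332 with dCas9-BFP-DNMT3B, 321 with dCas9-BFP-EGFP and 152 in the control. For MTRNR2L6 both the DNMT1 and the DNMT3A fusion libraries stood above the rest, and its RPM in the EGFP and DNMT3B fusion libraries did not differ beyond counting (ratio 1.00, interval 0.966 to 1.04).

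MTRNR2L3 had another order of libraries. It was at 629 TPM with dCas9-BFP-EGFP, 284 with dCas9-BFP-DNMT1, 274 in the control, 224 with dCas9-BFP-DNMT3B and 202 with dCas9-BFP-DNMT3A. The EGFP fusion library was highest here, at 2.14 times the RPM of the next library (interval 2.07 to 2.21), and the control was not the lowest. MTRNR2L10 was at 118 TPM with dCas9-BFP-EGFP, 101 with dCas9-BFP-DNMT1, 78.1 with dCas9-BFP-DNMT3A, 75.1 with dCas9-BFP-DNMT3B and 62.6 in the control, and its RPM in the DNMT3A and DNMT3B fusion libraries did not differ beyond counting (ratio 1.09, interval 0.994 to 1.18).

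The last 3 genes were low. MTRNR2L4 had 217 reads with dCas9-BFP-EGFP (15.6 TPM), 191 in the control (9.73 TPM), 110 with dCas9-BFP-DNMT3B (7.93 TPM), 107 with dCas9-BFP-DNMT1 (7.02 TPM) and 87 with dCas9-BFP-DNMT3A (5.55 TPM). MTRNR2L5 had 33, 40, 21, 25 and 14 reads in the same order of libraries, between 0.632 and 1.68 TPM. The EGFP fusion library was again highest for both by TPM and dCas9-BFP-DNMT3A lowest. No neighbouring libraries in the order of MTRNR2L5 differed beyond counting. Its RPM with dCas9-BFP-DNMT3A was below that of the control (ratio 0.430, interval 0.216 to 0.807). For MTRNR2L4 the DNMT1 fusion library did not differ beyond counting in RPM from dCas9-BFP-DNMT3A (ratio 1.31, interval 0.975 to 1.75) or from dCas9-BFP-DNMT3B (ratio of DNMT3B to DNMT1 1.05, interval 0.797 to 1.38). MTRNR2L7 had 5 reads with dCas9-BFP-EGFP, 1 each with dCas9-BFP-DNMT3A, with dCas9-BFP-DNMT3B and in the control, and 0 with dCas9-BFP-DNMT1, where a count of 0 allows up to 0.108 RPM (3 reads). No difference of MTRNR2L7 was detectable at this depth.

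The 4 comparisons with the control share the same control library, so they are not independent of each other. A gene was called when the exact conditional binomial test over all genes reached an adjusted p-value of 0.001 or less and the ratio of TPM + 0.1 was at least 2 in either direction. In dCas9-BFP-DNMT1, 4 of the 9 genes were called higher, beside 1.53% of 19022 genes called higher and 3.63% called lower. They were MTRNR2L6 at 3.93 times the control in RPM (interval 3.78 to 4.09), MTRNR2L8 at 2.89 times (2.86 to 2.92), MTRNR2L1 at 2.52 times (2.48 to 2.57) and MTRNR2L2 at 2.51 times (2.49 to 2.54). In dCas9-BFP-DNMT3A, MTRNR2L6 at 3.24 times (3.12 to 3.38) and MTRNR2L8 at 2.02 times (1.999 to 2.04) were called higher, beside 4.40% of all genes called higher and 4.96% lower. In dCas9-BFP-DNMT3B, MTRNR2L6 at 2.06 times (1.97 to 2.15) was called higher, beside 4.47% higher and 4.29% lower of all genes. In dCas9-BFP-EGFP, MTRNR2L3 at 2.24 times (2.17 to 2.31) and MTRNR2L6 at 2.06 times (1.98 to 2.16) were called higher, beside 2.60% higher and 3.10% lower. None of the 9 genes was called lower by this test in any of the 4 libraries. Because the genes were selected on these levels, nothing is read from these counts against the background. The test sees only read counting: with an assumed coefficient of variation of 0.2 between cultures (edgeR exact test), 0 of the 9 genes were called in each of the 4 comparisons.

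Below the calls, all 9 genes had a ratio to the control above 1 in dCas9-BFP-EGFP, and 6 of the 9 in each of the 3 methyltransferase libraries. These counts include MTRNR2L7 on 5 reads with dCas9-BFP-EGFP and 1 read each with dCas9-BFP-DNMT3A and dCas9-BFP-DNMT3B, against 1 in the control. The interval lay above 1 for 7 genes with dCas9-BFP-EGFP, 6 with dCas9-BFP-DNMT1, 5 with dCas9-BFP-DNMT3A and 5 with dCas9-BFP-DNMT3B. It lay below 1 for 0, 1, 3 and 2 genes in the same order. Of all genes, 49.8%, 38.9%, 46.3% and 46.7% had a ratio of TPM + 0.1 above 1 in that order. MTRNR2L4 was at 0.730 times the control with dCas9-BFP-DNMT1 (interval 0.571 to 0.930), 0.559 times with dCas9-BFP-DNMT3A (0.429 to 0.724) and 0.766 times with dCas9-BFP-DNMT3B (0.601 to 0.974), against 1.56 times with dCas9-BFP-EGFP (1.28 to 1.91). MTRNR2L3 was at 0.725 times with dCas9-BFP-DNMT3A (0.695 to 0.756) and 0.770 times with dCas9-BFP-DNMT3B (0.738 to 0.803), and at 1.05 times with dCas9-BFP-DNMT1 (1.01 to 1.09). MTRNR2L5 was at 0.430 times with dCas9-BFP-DNMT3A (0.216 to 0.807), on 14 reads against 40 in the control. The median log2 ratio of TPM over the 9 genes was 0.69 with dCas9-BFP-DNMT1, 0.32 with dCas9-BFP-DNMT3A, 0.26 with dCas9-BFP-DNMT3B and 0.87 with dCas9-BFP-EGFP. Over all genes with a read the medians were -0.15, -0.06, -0.05 and -0.003. With TMM-scaled library sizes the interval of MTRNR2L4 no longer lay below 1 with dCas9-BFP-DNMT1 or dCas9-BFP-DNMT3B.

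Setting the genes against MTRNR2L2 in the same library removes the total reads of the library. For every 1000 MTRNR2L2 reads, MTRNR2L8 had 916 reads with dCas9-BFP-DNMT1, 930.0 with dCas9-BFP-DNMT3A, 867 with dCas9-BFP-DNMT3B, 846 with dCas9-BFP-EGFP and 797 in the control, and MTRNR2L1 ranged from 265 to 314. The highest library was thus 1.17 times the lowest for MTRNR2L8 and 1.18 times for MTRNR2L1. MTRNR2L3 had 40.7 reads per 1000 with dCas9-BFP-DNMT1, 40.8 with dCas9-BFP-DNMT3A, 47.0 with dCas9-BFP-DNMT3B, 134 with dCas9-BFP-EGFP and 97.5 in the control. MTRNR2L10 had 11.7, 12.8, 12.7, 20.5 and 18.1 in that order, and MTRNR2L4 0.896, 0.996, 1.48, 2.97 and 3.08. MTRNR2L5 had 0.209, 0.160, 0.282, 0.451 and 0.646, from 14 to 40 reads. Its intervals with dCas9-BFP-DNMT3B (0.175 to 0.431) and dCas9-BFP-EGFP (0.311 to 0.634) overlapped. MTRNR2L3, MTRNR2L10, MTRNR2L4 and MTRNR2L5 were therefore all higher by point value against MTRNR2L2 in the EGFP fusion and control libraries. The DNMT1, DNMT3A and DNMT3B fusion libraries were lower. All 4 genes lay at or below 80.4% identity to MT-RNR2. MTRNR2L6, at 84.9% identity, had 85.2, 102, 70.0, 69.2 and 54.5 reads per 1000 and was lowest in the control. The 4 genes MTRNR2L2, MTRNR2L8, MTRNR2L1 and MTRNR2L6 held 97.7% of the reads on the 9 genes with dCas9-BFP-DNMT1, 97.7% with dCas9-BFP-DNMT3A, 97.3% with dCas9-BFP-DNMT3B, 93.4% with dCas9-BFP-EGFP and 94.7% in the control. With 1 library per group, a difference between cultures and one between plasmids cannot be told apart.

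**Figure D2:**
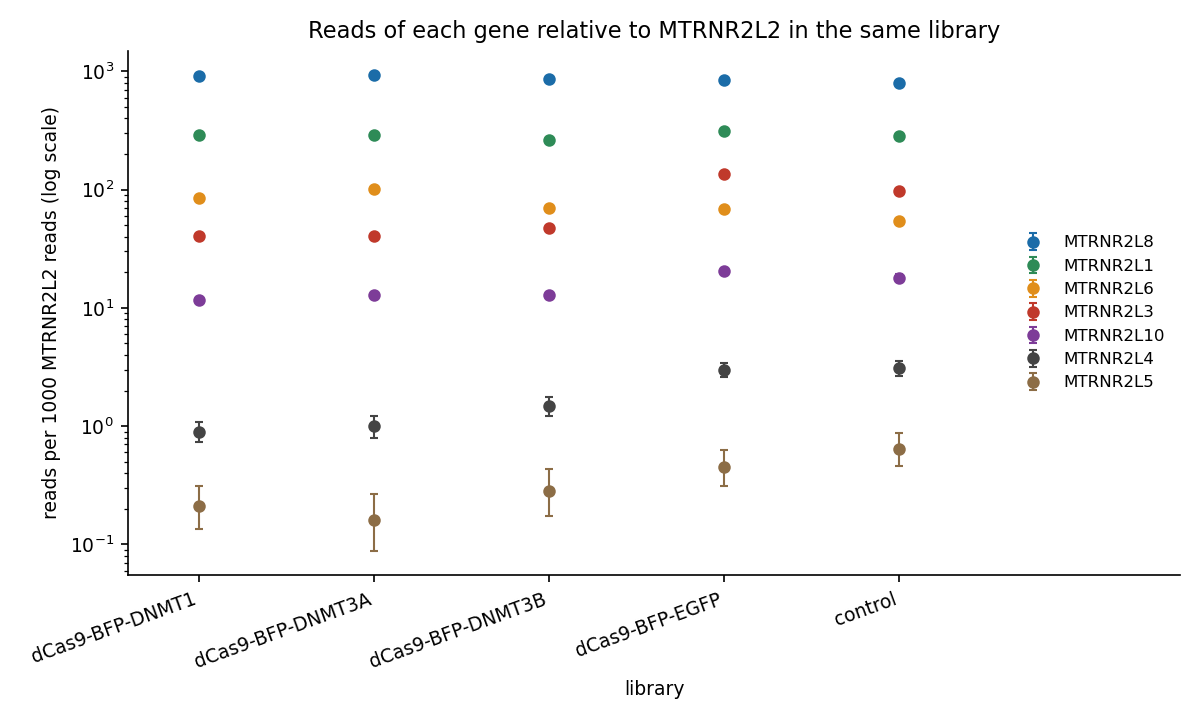
Reads of each gene per 1000 reads of MTRNR2L2 in the same library (log axis), with 95% intervals of read counting. MTRNR2L8 and MTRNR2L1 stay nearly level across libraries, whereas MTRNR2L3 lies above MTRNR2L6 in the dCas9-BFP-EGFP (134 against 69.2) and control (97.5 against 54.5) libraries.

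The fusions were also compared among themselves and together against the control with edgeR's quasi-likelihood test, in which different fusions stand in for replicates. For the 4 fusions against the control, 0 of the 8 MTRNR2L genes that passed the filter on low counts were called at an adjusted p-value under 0.05, beside 118 of 16001 genes (0.737%). At an unadjusted p under 0.05 there were 4 (MTRNR2L1, MTRNR2L2, MTRNR2L6 and MTRNR2L8), beside 18.0% of all genes, and DESeq2 called these 4 as higher, beside 992 of 19714 genes called, 528 of them higher. The fitted log2 differences were 1.59 for MTRNR2L6, 1.16 for MTRNR2L8, 1.00 for MTRNR2L1 and 0.99 for MTRNR2L2. For the DNMT3A and DNMT3B fusions against the DNMT1 and EGFP fusions, 2 of 8 were called, both lower, beside 11.0% of 15332 genes. They were MTRNR2L3 with a log2 difference of -1.13 and MTRNR2L10 with -0.57. DESeq2 called MTRNR2L10 but not MTRNR2L3, beside 2146 of 19379 genes, and without the filter edgeR called neither. The EGFP and DNMT1 fusion libraries, on the same side of this comparison, themselves differed 2.14 times in the RPM of MTRNR2L3.

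The covered part of each transcript, a percentage in the deposited tables that the authors did not define, split the genes in another way. MTRNR2L8 was covered over 100% of its length in all 5 libraries and MTRNR2L2 over 98.4% to 100%. MTRNR2L1 was covered over 85.3% to 89.7%. MTRNR2L6 reached only 40.9% to 52.2%, MTRNR2L3 33.7% to 52.4% and MTRNR2L10 38.9% to 53.5%. In each library, the genes with a read density (reads per base of transcript) within 1.25 times that of the gene served as a reference. Their median coverage was 95.7% to 97.9% for MTRNR2L6, 96.1% to 97.0% for MTRNR2L3 and 94.3% to 95.9% for MTRNR2L10. Of the 96 genes at a read density like that of MTRNR2L3 in the dCas9-BFP-EGFP library, 0 had a lower coverage, and of the 587 like MTRNR2L6 in the control, 1 did. MTRNR2L3 thus held 9827 reads on 38.4% of its transcript in the EGFP fusion library, and 6041 reads on 43.0% in the control. MTRNR2L4 was covered over 40.9% to 67.6%, beside reference medians of 80.4% to 88.4%. MTRNR2L5 was covered over 16.6% to 22.4%, beside 36.4% to 53.7%. The medians for MTRNR2L1 were 96.9% to 99.5%, so these genes also lay below their medians. In the control, 33 of 1297 reference genes had a lower coverage than MTRNR2L4, 115 of 820 than MTRNR2L5 and 8 of 75 than MTRNR2L1. Coverage does not say where in the transcript the reads lie, and no read positions were analysed here.

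The sequences were then compared with the alignment rule of the study, which kept reads of at least 30 bases with at most 3 mismatches. MT-RNR2 was cut at every position into windows of 30 bases, and each window was compared without gaps with the 9 copies. Of 1530 windows, 82.5% matched at least 1 copy within 3 mismatches, and 581 had a single best copy. MTRNR2L2 was the single best copy for 38.6% of these, MTRNR2L8 for 30.1%, MTRNR2L1 for 21.3%, MTRNR2L6 for 3.61%, MTRNR2L10 for 3.10%, MTRNR2L4 for 2.24% and MTRNR2L3 for 1.03%. MTRNR2L5 and MTRNR2L7 were the single best copy for 0 windows. With windows of 100 bases, 28.3% matched a copy, and MTRNR2L2 took 75.5% of the single best matches, MTRNR2L8 19.6%, MTRNR2L1 3.99% and MTRNR2L6 0.920%. The shares of reads on the 9 genes ranked MTRNR2L2, MTRNR2L8 and MTRNR2L1 in the same order as the windows of 30, 50 and 100 bases, while the rank of MTRNR2L6 changed with the window. With windows of 50 bases, MTRNR2L2 took 50.1%, MTRNR2L8 28.6%, MTRNR2L1 15.7%, MTRNR2L10 2.90%, MTRNR2L3 1.53%, MTRNR2L4 0.681% and MTRNR2L6 0.511%. MTRNR2L3, MTRNR2L10, MTRNR2L4, MTRNR2L5 and MTRNR2L7 each matched 0 windows of 100 bases. MTRNR2L3 held 2.86% of the reads, more than MTRNR2L10 and MTRNR2L4. It was the single best copy for fewer windows of 30 bases than either, and with 50 bases for fewer than MTRNR2L10 but more than MTRNR2L4. The windows of 30 bases within 3 mismatches reached 58.1% of the bases of MTRNR2L3, 60.2% of MTRNR2L6, 58.2% of MTRNR2L10, 83.8% of MTRNR2L1, 97.9% of MTRNR2L8 and 98.6% of MTRNR2L2. They reached 34.2% of MTRNR2L4, 36.1% of MTRNR2L5 and 44.7% of MTRNR2L7. For MTRNR2L4, MTRNR2L1 and MTRNR2L8 this was less than the covered part in any library. For MTRNR2L3, MTRNR2L6, MTRNR2L10, MTRNR2L5 and MTRNR2L7 it was more. The reach was taken over the locus and the coverage over the deposited transcript. Their lengths differ most for MTRNR2L4 (1301 and 1231 bases). They also differ for MTRNR2L6 (1447 and 1395), MTRNR2L7 (1530 and 1494), MTRNR2L8 (1302 and 1290), MTRNR2L2 (1026 and 1036) and MTRNR2L5 (1744 and 1739). The length of the sequenced reads and whether MT-RNR2 was itself among the sequences aligned to are not given in the sources used here. How many of the reads came from the mitochondrial rRNA was not tested, and MT-RNR2 was not analysed here.

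The genes around several of the copies were also read. RAE1, a nuclear pore and mRNA export factor whose intron holds MTRNR2L3, was at 99.3 TPM with dCas9-BFP-DNMT1, 209 with dCas9-BFP-DNMT3A, 178 with dCas9-BFP-DNMT3B, 115 with dCas9-BFP-EGFP and 127 in the control, and was highest in the DNMT3A fusion library, where MTRNR2L3 was lowest. RNF141 and AMPD3, on either side of MTRNR2L8, were at 13.5 to 20.3 TPM and 0.74 to 1.66 TPM. PCDH15 was at or below 0.04 TPM. The library protocol does not state that strand was kept.

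Of the 10 listed receptors and binding partners of humanin, 9 had a read in some library, and 1 was called in any comparison with the control. TRIM11, a ubiquitin ligase that binds humanin, was at 72.1 TPM with dCas9-BFP-DNMT1, 213 with dCas9-BFP-DNMT3A, 229.7 with dCas9-BFP-DNMT3B, 94.8 with dCas9-BFP-EGFP and 60.4 in the control, and was called higher with dCas9-BFP-DNMT3A and dCas9-BFP-DNMT3B. Its level did not follow that of MTRNR2L2, which was highest with dCas9-BFP-DNMT1. BAX was at 75.4, 83.6, 83.8, 93.3 and 99.0 TPM in the same order and was not called in any comparison. Of the receptor subunits, CNTFR was at 18.7 to 33.1 TPM, IL27RA at 9.27 to 10.8 TPM and IL6ST at 11.2 to 16.9 TPM, and none was called. FPR3, a formyl peptide receptor, was at or below 0.11 TPM, and FPR2, also listed, had no entry under its symbol in any library. The median log2 ratio of the list to the control lay between -0.24 and -0.08. The share of all genes called in either direction was 5.16% with dCas9-BFP-DNMT1, 9.36% with dCas9-BFP-DNMT3A, 8.76% with dCas9-BFP-DNMT3B and 5.70% with dCas9-BFP-EGFP.

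The list of nuclear genes of mitochondrial rRNA transcription, processing and polyadenylation held 31 genes, all with reads. It also included POLG, TWNK and SSBP1, proteins of mitochondrial DNA replication, none of which was called against the control. In the 4 comparisons 3, 3, 1 and 2 of the 31 genes were called with the DNMT1, DNMT3A, DNMT3B and EGFP fusions, all lower than the control. Of all genes, 3.63%, 4.96%, 4.29% and 3.10% were called lower in these comparisons. The list medians were -0.50, -0.12, -0.22 and -0.34 on the log2 scale, each below the median of all genes. PRORP, the catalytic subunit of the mitochondrial RNase P that cuts tRNAs out of the long mitochondrial transcripts, was called lower in all 4 (in 3 with TMM-scaled sizes, which lost the DNMT3A call), at 15.0, 20.2, 17.9 and 16.6 TPM against 41.7 TPM in the control. TRMT10C, a second subunit of this enzyme, was at 32.3, 35.1, 41.9 and 38.4 TPM against 79.5 TPM, and was called lower in all but the DNMT3B fusion library. HSD17B10, the remaining subunit, was at 190.2 to 240.0 TPM against 286 TPM and was not called. In the edgeR comparison of the 4 fusions with the control, 0 of 8 tested genes of the humanin list and 1 of 31 of the mitochondrial list were called, the latter lower, beside 0.737% of all genes. In the comparison of DNMT3A and DNMT3B with the other two fusions, 1 of 7 and 8 of 31 were called, and 7 of these 8 were higher with DNMT3A and DNMT3B, beside 11.0% of all genes called, 1058 higher and 636 lower. With a coefficient of variation of 0.2, no gene of either list was called against the control.

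Outside the family, 10153 genes with at least 5 TPM in every library were compared with the summed TPM of the 9 genes, on the log2 scale over the 5 libraries. The nearest was ATP6V0C, a subunit of the vacuolar proton pump, with a Pearson correlation of 0.998 and 417, 361, 353, 360 and 274 TPM, in the order in which the libraries were first named. PIR was next (0.991), at 9.35 TPM in the control and 20.8 TPM with dCas9-BFP-DNMT1, then SHISA9 (0.988), MAP3K13 (0.986) and NUDT14 (0.986). Among so many genes and 5 points such values are common: 34 genes lay above 0.95 and 216 below -0.95. The summed TPM of the 9 genes spanned 1.36 log2 units between control and dCas9-BFP-DNMT1, against 0.60 for ATP6V0C.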

How the data were processed

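RNA of HEK293T cells from 5 groups, 1 library each, was poly(A)-selected, amplified over 12 cycles and sequenced on an Ion Proton. The authors aligned reads of at least 30 bases with tmap (version not given in the sources used here) to RefSeq RNA of hg19, allowed at most 3 mismatches and kept unique matches. The deposited tables hold a read count per gene without normalization, the TPM the authors derived from it, and a coverage percent. Genes missing from a table were set to 0. Reads that match several copies equally are not counted, and how far this lowers each copy was not tested. PCR reads are not independent molecules, so intervals (exact binomial for shares, counts and ratios) cover counting only.

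The members and lists were chosen with earlier results of these data known. From the lists, genes called in at least 2 control comparisons were named, with BAX and the receptors in any case. Two-sided exact conditional binomial tests (scipy 1.17.1), Benjamini-Hochberg adjusted over all genes with a read, and folds with a pseudocount of 0.1 TPM gave calls against the control. edgeR 4.0.16 was used with TMM, filterByExpr and the quasi-likelihood test, and DESeq2 1.42.0 as an alternative. Scripts were tested on simulated data. Sequences came from GRCh37 with GENCODE v44 annotation lifted to it and were matched with blastn 2.17.0. RefSeq gene types are from a GRCh38.p14 table. Its coordinates served only to find the neighbouring gene, and the distance to it, for the genes placed by the match of MT-RNR2. The positions given are those of GRCh37.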

Additional observations from a re-analysis of the deposited data

How the results depend on the processing

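The direction of each gene's ratio to the control held in all 4 comparisons with TMM library sizes and with a pseudocount of 1 TPM. TMM sizes shifted log2 ratios to the control, before the pseudocount, by 0.11 with the DNMT1 fusion, 0.05 with DNMT3A, 0.09 with DNMT3B and 0.03 with EGFP. With the pseudocount MTRNR2L7 moved less, and with EGFP slightly down (1.48 to 1.47). With an assumed coefficient of variation of 0.2, genes called fell to 39 (DNMT1), 136 (DNMT3A), 117 (DNMT3B) and 59 (EGFP), and MTRNR2L genes, humanin list genes and mitochondrial list genes called were 0 in each. A pseudocount of 1 TPM gave 540 genes called with the DNMT1, 1143 with the DNMT3A and 648 with the EGFP fusion, beside 982, 1776 and 1090 in the main analysis. TMM or median-ratio scaling left 1 mitochondrial list gene called with dCas9-BFP-DNMT3A.

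Without the DNMT1, DNMT3A and DNMT3B entries in the total, the 9 genes had 10454, 7294 and 6603 RPM in the libraries of these fusions. With TMM sizes they had 10479, 7020.4, 6368, 6517 and 3724 RPM in the order DNMT1, DNMT3A, DNMT3B, EGFP and control, and without MTRNR2L2 5778, 4090, 3464, 3867 and 2154. The DNMT1 library stayed highest and the control lowest in each.

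For the 4 fusions against the control, DESeq2 called 992 genes, 4 MTRNR2L genes and 3 mitochondrial list genes, and edgeR without the filter 252 genes and 2 mitochondrial list genes. Leaving out 1 fusion at a time gave 65 to 95 genes, beside 118, with 0 MTRNR2L genes and 0 mitochondrial list genes each time. Between the fusions, DESeq2 called 1 MTRNR2L gene, and edgeR without the filter 1052 genes and 0 MTRNR2L genes. No paired analysis was possible because each group had 1 library. Causes of these shifts were not tested. The absence of replicates limits every comparison, and MTRNR2L5 and MTRNR2L7 are limited by depth.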
